A study of Mus musculus with 10 samples.

Results

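Nkain2, Asxl3 and Chl1 are 3 of the 28125 genes in the scRNA-seq matrix and of the 30670 genes in the scATAC-seq matrix of this mouse testis series. They were chosen by their scRNA-seq values, as genes of spermatids that are also high in spermatogonia lacking NFYA. The RNA levels that chose them are therefore given as a description, without a test. The scATAC-seq signal, the gene families, the gene spans and the promoter sequences were not part of that choice.

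Nuclei were taken from testes of juvenile wild-type (WT) mice, aged 11, 17 or 25 days post partum (dpp), and from those of adult mice aged 8 weeks, which were Cre/+ controls or Nfya-CKO, and RNA and open chromatin were read from the same nuclei. Nfya-CKO mice carry floxed Nfya alleles cut by Stra8-Cre, a Cre expressed in germ cells from the spermatogonial stage, and the Cre/+ controls carry Stra8-Cre without the floxed alleles. By this design Nfya stays intact in the somatic cells of the Nfya-CKO testis. Each of the 5 conditions was 1 library per assay, so no difference between conditions can be set against a spread between replicates, and all ratios are descriptions of these libraries.

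The deposited matrices hold 1 value per gene for each of 13 populations. The germ cells comprise spermatogonia that are undifferentiated (undiff. SpG) or differentiating (diff. SpG), the preleptotene (pL), early leptotene to zygotene (eL/L/Z), leptotene to early pachytene (L/Z/eP), middle and late pachytene (mP/lP) and diplotene (D) spermatocytes, the round (RS) and elongating (ES) spermatids, and the spermatogonia of the mutant (SpG Nfya-CKO). The rest are Sertoli cells, other somatic cells and unknown cells. Except for SpG Nfya-CKO, every population pools cells of several libraries and ages. The control undiff. SpG are mostly juvenile, with 103 of 1291 cells (7.98%, exact 95% interval 6.56 to 9.59) from 8-week-old testes, while all 491 SpG Nfya-CKO cells are from an 8-week-old testis. Genotype and age cannot be told apart between these populations.

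Some cell barcodes occurred in more than 1 library. The Cre/+ and Nfya-CKO scRNA-seq libraries shared 3813 cell barcodes, 74.0% of the barcodes of the Nfya-CKO library, whereas Nfya-CKO shared from 0 to 10 barcodes with each WT library. The WT libraries shared barcodes among themselves too, 703 between 11 and 17 dpp, 621 between 11 and 25 dpp and 853 between 17 and 25 dpp, the last being 22.8% of the 17 dpp barcodes. In scATAC-seq the adult pair shared 92 barcodes, 0.617% of those of Nfya-CKO. Among SpG Nfya-CKO, 175 of 491 cells (35.6%, exact 95% interval 31.4 to 40.1) had a barcode that was also in the Cre/+ scRNA-seq library. In Cre/+, 143 of those 175 barcodes were called diff. SpG, 31 D and 1 RS. The median was 21471 UMIs (unique molecular identifiers, each counting 1 captured transcript) for these cells in Nfya-CKO and 2275 for the same barcodes in Cre/+. Of the 783 Cre/+ cells in diff. SpG, 448 (57.2%) shared a barcode with Nfya-CKO. Other Cre/+ germ cells did so too, 1110 of 1411 in mP/lP (78.7%), 709 of 1190 in ES (59.6%) and 58 of 102 in undiff. SpG (56.9%). The share was lower in D (24.4%) and RS (10.8%). Among other somatic cells, 3628 of 4633 Nfya-CKO cells (78.3%) and 317 of 341 Cre/+ cells (93.0%) had a barcode in the other adult library. The matrices pool cells, so no level could be recomputed without the shared barcodes, and their part in the results was not tested.

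Nkain2 encodes a membrane protein that interacts with the Na,K-ATPase, the pump that keeps the sodium and potassium gradients across the cell membrane. Asxl3 is one of the Additional sex combs-like proteins, which partner the deubiquitinase BAP1 in removing ubiquitin from histone H2A. Chl1, the close homolog of L1, is a cell adhesion molecule of the immunoglobulin superfamily known from axon growth. All are best known from the nervous system. NFYA is the subunit of the trimeric factor NF-Y that contacts CCAAT boxes in promoters.

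The promoter windows of Nkain2 and Chl1 are shown because the mutated factor binds a known short sequence. Of the 3 genes, 2 matched the RefSeq promoter table, all but Asxl3. The windows run from 250 bases before to 50 bases after the RefSeq start site in GRCm38.p6, at chr10:32889866-32890165 on the minus strand for Nkain2 and at chr6:103510626-103510925 on the plus strand for Chl1. In GENCODE annotation both genes begin upstream of their windows, at 32890462 for Nkain2 and at 103510586 for Chl1. Capitals mark GGGCGG or its reverse complement CCGCCC, the GC box. CCAAT and its reverse complement ATTGG were searched on both strands as well and would also be in capitals.
Nkain2: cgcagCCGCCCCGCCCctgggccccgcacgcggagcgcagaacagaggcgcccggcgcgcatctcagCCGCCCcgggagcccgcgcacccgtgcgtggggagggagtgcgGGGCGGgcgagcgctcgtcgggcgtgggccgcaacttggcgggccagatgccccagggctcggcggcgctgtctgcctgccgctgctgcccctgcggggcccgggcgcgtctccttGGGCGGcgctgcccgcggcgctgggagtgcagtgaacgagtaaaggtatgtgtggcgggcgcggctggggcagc
Chl1: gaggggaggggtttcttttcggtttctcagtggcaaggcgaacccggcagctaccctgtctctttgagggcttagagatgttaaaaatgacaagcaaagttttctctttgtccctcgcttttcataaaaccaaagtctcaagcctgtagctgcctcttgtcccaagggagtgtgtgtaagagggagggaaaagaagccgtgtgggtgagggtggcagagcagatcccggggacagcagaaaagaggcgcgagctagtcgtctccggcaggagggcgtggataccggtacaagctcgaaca

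Neither window holds CCAAT on either strand, which says only that these letters are not in these 300 bases. CCAAT was present in 12289 of 32851 RefSeq windows of the same length (37.4%). Nkain2 has 5 GC boxes, of which the first 2 overlap, and Chl1 has 0, while 35.7% of all windows have at least 1. The Nkain2 window is 78.7% G and C with 43 CpG dinucleotides, and 1.44% of all windows are richer in G and C. The Chl1 window, at 53.7% G and C with 13 CpG, is close in G and C content to the median window, which has 52.7%, and has more CpG than the median of 7. The promoters of the pair thus differ widely in composition.

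Nkain2 RNA was at its highest in SpG Nfya-CKO of all 13 populations. Levels are means over cells, in UMIs of the gene per 10000 UMIs. Along the control germ line Nkain2 was at 2.41 in undiff. SpG, 23.7 in diff. SpG, 0.362 in pL, 1.05 in eL/L/Z, 1.46 in L/Z/eP, 7.39 in mP/lP, 22.7 in D, 42.4 in RS and 43.2 in ES. In SpG Nfya-CKO it was at 85.6. Among the remaining populations it was at 49.8 in other somatic cells, 24.4 in unknown cells and 2.65 in Sertoli cells. The level thus dropped from diff. SpG to pL and rose at each stage from there to RS, and RS and ES were nearly equal. In SpG Nfya-CKO this gene alone took 0.856% of all UMIs, against 0.0241% in control undiff. SpG. Among all 28125 genes Nkain2 ranked 1 in SpG Nfya-CKO, 2 in RS and 714 in control undiff. SpG. Per kilobase of merged GENCODE exons, it ranked 2, 14 and 817 among 27457 genes. The sources used here do not say whether reads in introns were counted, so exon length may be the wrong divisor. These levels chose the gene, so nothing is read from the ranks.

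Asxl3 had its highest level in RS, followed by ES and then SpG Nfya-CKO. It was at 0.975 UMIs per 10000 in undiff. SpG, 10.7 in diff. SpG, 0.287 in pL, 0.381 in eL/L/Z, 0.257 in L/Z/eP, 2.61 in mP/lP, 9.14 in D, 24.2 in RS and 23.8 in ES. SpG Nfya-CKO were at 12.9, other somatic cells at 11.7, unknown cells at 4.75 and Sertoli cells at 0.0577. SpG Nfya-CKO thus lay near other somatic cells and diff. SpG, at 53.4% of the RS level.

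Chl1 had its highest level in ES, and SpG Nfya-CKO came after ES, RS and other somatic cells. It was at 0.357 UMIs per 10000 in undiff. SpG, 4.59 in diff. SpG, 0.0709 in pL, 0.241 in eL/L/Z, 0.413 in L/Z/eP, 1.36 in mP/lP, 4.17 in D, 9.02 in RS and 13.8 in ES. SpG Nfya-CKO were at 5.24, other somatic cells at 7.27, unknown cells at 3.13 and Sertoli cells at 0.0216. For Chl1 the diff. SpG, D and SpG Nfya-CKO levels were close together. With 1 pooled value per population there is no spread to say which neighbours in these orders differ.

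**Figure D1:**
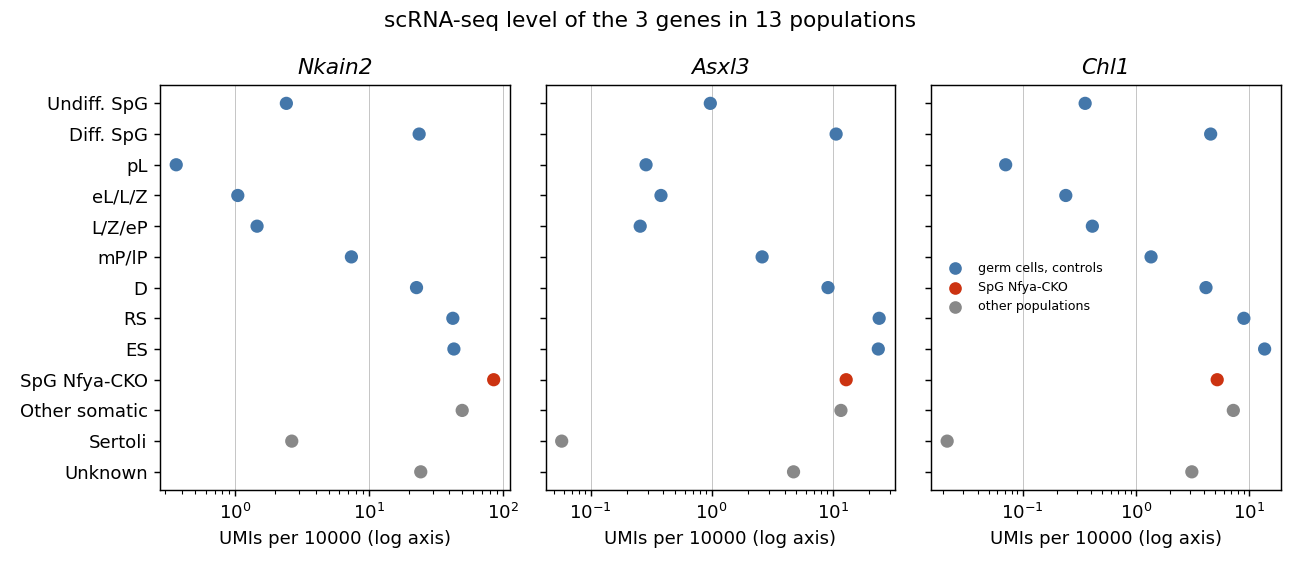
Each point is the scRNA-seq level of 1 gene in 1 population, in UMIs per 10000 on a log axis, with control germ cells in blue, SpG Nfya-CKO in red and other populations in grey. All 3 genes are low from pL to L/Z/eP and high from D to ES, and only Nkain2 is highest in SpG Nfya-CKO, at 85.6.

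Against control undiff. SpG, the SpG Nfya-CKO level was 35.5 times as high for Nkain2, 13.3 times for Asxl3 and 14.7 times for Chl1. With 0.1 added to both levels the log2 ratios were 5.09, 3.60 and 3.55, and the median over all 15250 genes with a mean of at least 0.05 was 0.01. Of these genes 624 (4.09%) were at least 2-fold higher in SpG Nfya-CKO, and the 3 genes rank 6, 10 and 11 from the top. These values chose the genes, so nothing is read from the ranks. Against pL, which like undiff. SpG are mostly juvenile, the log2 ratios were 7.54, 5.07 and 4.97, and 9.05% of genes were at least 2-fold higher.

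The difference was much smaller against diff. SpG, the control spermatogonia that are mostly adult, with 783 of 925 cells (84.6%) from Cre/+. The SpG Nfya-CKO level was 3.61 times that of diff. SpG for Nkain2, 1.21 times for Asxl3 and 1.14 times for Chl1. Nkain2 was therefore the one gene of the 3 that was at least 2-fold higher in this comparison, where 6.86% of all genes were. Diff. SpG were themselves above undiff. SpG, by log2 ratios of 3.25 for Nkain2, 3.33 for Asxl3 and 3.36 for Chl1, and 9.57% of all genes were at least 2-fold higher there. Both comparisons with undiff. SpG share that control, and diff. SpG are the population in which 143 barcodes of SpG Nfya-CKO reappear.

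**Figure D2:**
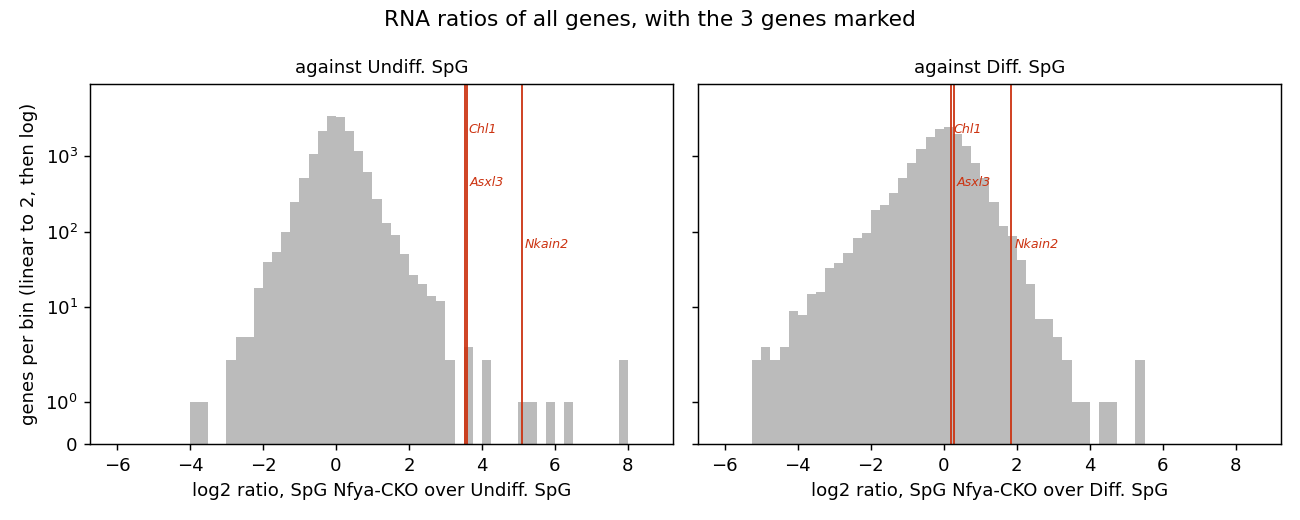
Grey bars count the 15250 genes by their log2 RNA ratio of SpG Nfya-CKO over undiff. SpG (left) or diff. SpG (right), and red lines mark the 3 genes. The lines lie far to the right at 5.09, 3.60 and 3.55 on the left, while on the right Asxl3 and Chl1 fall in the centre at 0.27 and 0.19 and Nkain2 is at 1.85.

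The levels of the 3 genes were higher in populations with more cells from 8-week-old testes, which the choice of the genes fixes in part, since RS, ES and SpG Nfya-CKO are mostly adult. In the 7 populations with over 50% adult cells (53.0% or more), Nkain2 ranged from 22.7 to 85.6 UMIs per 10000, Asxl3 from 4.75 to 24.2 and Chl1 from 3.13 to 13.8. In the other 6 populations (27.9% adult cells or fewer) the ranges were 0.362 to 7.39, 0.0577 to 2.61 and 0.0216 to 1.36. The ranges did not overlap for any of the 3 genes, which was true of 166 of 15250 genes (1.09%). Since these levels chose the genes, nothing is read from that share. Spearman's rho between level and adult share over the 13 populations was 0.90 for Nkain2, 0.91 for Asxl3 and 0.92 for Chl1. A rho at least as high was found for 64, 49 and 32 of the 15250 genes in that order, and nothing is read from these counts either. Without RS, ES and SpG Nfya-CKO, rho was 0.84, 0.94 and 0.96 over 10 populations. These still include undiff. SpG, the control in the contrast that chose the genes, and no share of all genes is set beside them. Nothing is read from these values either. These points share libraries and are not independent. Among mostly adult populations Asxl3 and Chl1 in SpG Nfya-CKO lay within the range of the others, whereas Nkain2 at 85.6 lay above their highest level of 49.8. Stage, library and age were not separated in these values, and the part of each was not tested.

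**Figure D3:**
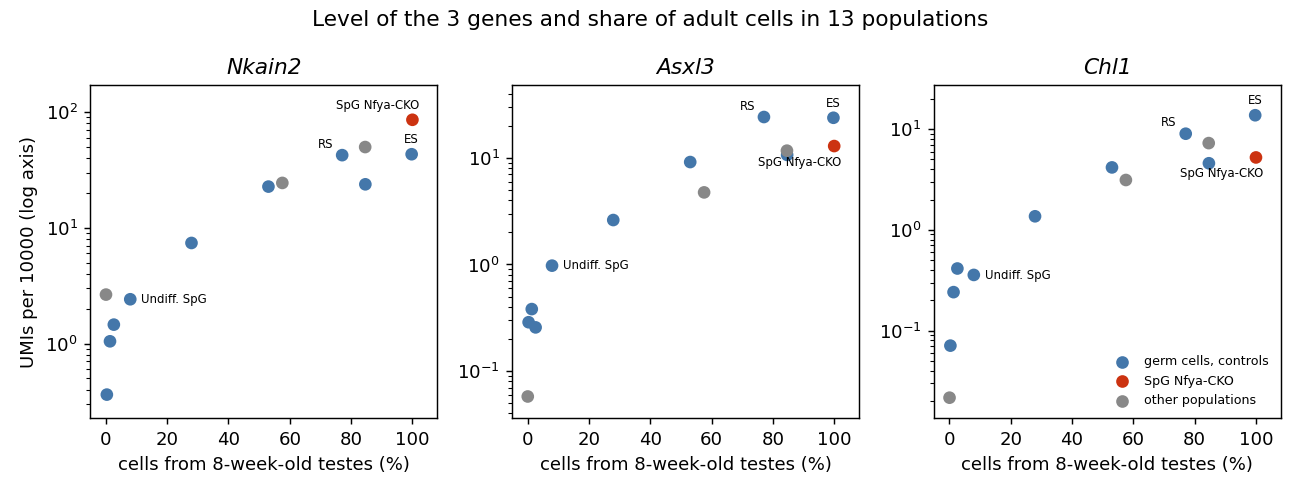
Each point is 1 population, with the percentage of its cells from 8-week-old testes (Cre/+ and Nfya-CKO) on the horizontal axis and the level of the gene in UMIs per 10000 on a log vertical axis. The 6 populations with 27.9% adult cells or fewer lie below the 7 others for every one of the 3 genes.

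Among control germ cells the 3 genes were highest in spermatids, by the values that chose them, but spermatid markers were not high in SpG Nfya-CKO. Of RS cells 77.1% and of ES cells 99.7% were adult. In RS the levels of Nkain2, Asxl3 and Chl1 were 17.6, 24.8 and 25.3 times those of undiff. SpG, and 22.4% of all genes were at least 2-fold higher. A list of 14 spermatid markers, among them the protamines Prm1 and Prm2 and the transition proteins Tnp1 and Tnp2, summed to 62.2 UMIs per 10000 in RS and 169 in ES. In SpG Nfya-CKO the sum was 0.380, under the 1.37 of control undiff. SpG, and all 14 markers were under 0.1. In that population Nkain2 was at 202% of its RS level, Asxl3 at 53.4% and Chl1 at 58.1%, while the spermatid marker sum was at 0.611%. In some other populations outside the spermatids the markers were present beside the 3 genes. In diff. SpG the marker sum was 18.2, or 29.3% of RS, beside 56.0% for Nkain2, 44.1% for Asxl3 and 50.9% for Chl1. In other somatic cells it was 8.88, or 14.3% of RS, beside 117% for Nkain2, 48.3% for Asxl3 and 80.7% for Chl1. In unknown cells it was 11.9.

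SpG Nfya-CKO held RNA of spermatogonial markers, several at lower levels than in the control, and of somatic genes. A list of 9 markers of undifferentiated spermatogonia summed to 24.5 UMIs per 10000 in SpG Nfya-CKO and 30.2 in undiff. SpG. Of these, 4 were at least 2-fold lower (Zbtb16, Sall4, Foxo1 and Id4) and none was at least 2-fold higher, while 3.08% of all genes were 2-fold lower and 4.09% 2-fold higher. Uchl1 was at 11.0 in SpG Nfya-CKO and 5.88 in undiff. SpG, and the other 8 markers summed to 13.4 and 24.3. The 8 Leydig cell markers, genes of steroid synthesis such as Cyp17a1 and the hormone gene Insl3, summed to 51.8 in SpG Nfya-CKO, 0.346 in undiff. SpG and 229.6 in other somatic cells. The 9 Sertoli cell markers summed to 28.9, 5.25 and 118 in the same populations, and to 85.3 in Sertoli cells. Clu alone gave 22.8 of the sum in SpG Nfya-CKO and 91.5 of that in other somatic cells, and the other 8 markers summed to 6.13 in SpG Nfya-CKO and 2.75 in undiff. SpG. The glial and neuronal list of 8 genes summed to 0.960 in SpG Nfya-CKO and 1.65 in undiff. SpG.

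The 3 genes had higher ratios than the Leydig cell, Sertoli cell and spermatid markers between the populations that hold most Nfya-CKO cells. Of the 5880 other somatic cells with a library name 4633 came from Nfya-CKO. The level in SpG Nfya-CKO over that in other somatic cells was 1.72 for Nkain2, 1.10 for Asxl3 and 0.72 for Chl1. For the 8 Leydig cell markers that ratio lay between 0.163 and 0.246, for the 9 Sertoli cell markers between 0.216 and 0.361, and for the 14 spermatid markers between 0.00292 and 0.384. All 3 genes thus lay above every marker of these 3 lists on this ratio, but its numerator is the level that chose them, so nothing is read from that. They did not lie above every somatic marker, since the 3 macrophage markers that passed the filter ranged from 0.298 to 0.727 and the 7 peritubular and endothelial markers from 0.0308 to 2.30. Nor was the ratio unusual among all genes, of which 17.5% had a higher one than Nkain2, 44.8% than Asxl3 and 72.1% than Chl1. Markers of undifferentiated spermatogonia ranged from 0.475 to 8.19.

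**Figure D4:**
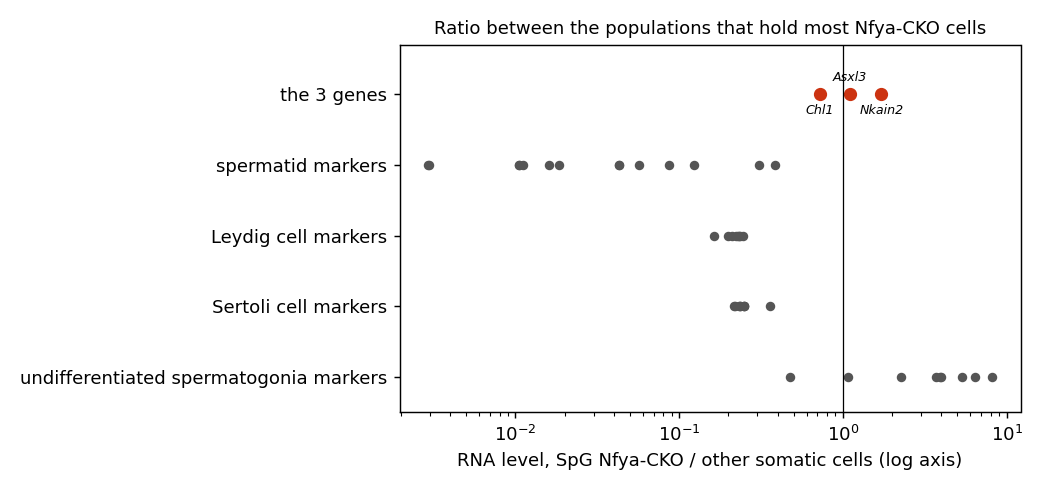
Each point is 1 gene, placed by its RNA level in SpG Nfya-CKO over that in other somatic cells on a log axis, with the 3 genes in red and 4 marker lists in grey. Leydig and Sertoli cell markers cluster between 0.163 and 0.361, and the 3 genes lie from 0.72 to 1.72.

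Many genes shared this pattern by rule. In all, 5050 genes had RS or ES as their highest control germ population. Of them 396 (7.84%) were at least 2-fold higher in SpG Nfya-CKO than in undiff. SpG, against 4.09% of all genes. Nkain2 and Asxl3 were among the 10 with the largest ratios and Chl1 was the next one. The other 8 of the 10 were Insl3, Jak3, Ptgds, Cyp17a1, Lcn2, Hsd3b6, Ephx1 and Agt, of which 3 are on the Leydig cell list, and Jak3 overlaps Insl3 on the same strand, so that their counts may share reads. All 8 peaked in ES among control germ cells, and their ratio of SpG Nfya-CKO over other somatic cells lay between 0.207 and 0.261. Of the 396 genes, 282 were higher in other somatic cells than in SpG Nfya-CKO. Nkain2 and Asxl3 belong to the other 114, and Chl1 to the 282, by the levels that chose them. Over all 15250 genes the median log2 ratio of SpG Nfya-CKO over other somatic cells was 0.03.

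Between SpG Nfya-CKO and undiff. SpG the scATAC-seq signal of the 3 genes differed far less than their RNA. The RNA side of this contrast is the one that chose the genes. The scATAC-seq values are signal per gene, scaled to 1000000 per population. Nkain2 was at 18.2 in undiff. SpG, 12.6 in diff. SpG, 13.04 in pL, 10.7 in eL/L/Z, 6.67 in L/Z/eP, 8.97 in mP/lP, 12.7 in D, 14.3 in RS and 13.4 in ES. SpG Nfya-CKO were at 20.0, Sertoli cells at 23.1, other somatic cells at 10.4 and unknown cells at 3.56. The Sertoli cell signal was the highest of the 13, although Nkain2 RNA was higher in 8 other populations.

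The Asxl3 signal was highest in control undiff. SpG. It was at 29.7 in undiff. SpG, 25.3 in diff. SpG, 27.7 in pL, 16.0 in eL/L/Z, 11.2 in L/Z/eP, 14.5 in mP/lP, 19.4 in D, 19.8 in RS and 23.0 in ES. It was at 21.7 in SpG Nfya-CKO, 12.1 in Sertoli cells, 8.77 in other somatic cells and 14.2 in unknown cells. The control spermatogonia and pL thus had the highest signal, though pL had little Asxl3 RNA, and SpG Nfya-CKO ranked 5, below ES.

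The Chl1 signal was highest in SpG Nfya-CKO. It was at 15.7 in undiff. SpG, 9.45 in diff. SpG, 9.86 in pL, 6.21 in eL/L/Z, 3.01 in L/Z/eP, 3.87 in mP/lP, 6.09 in D, 9.60 in RS and 5.89 in ES. It was at 19.8 in SpG Nfya-CKO, 3.29 in Sertoli cells, 5.43 in other somatic cells and 7.60 in unknown cells. Both spermatogonial populations at the undifferentiated stage, control and Nfya-CKO, were above all others.

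SpG Nfya-CKO over undiff. SpG, the scATAC-seq signal was 1.10 times as high for Nkain2, 0.731 times for Asxl3 and 1.26 times for Chl1. With 1 added to both, the log2 ratios were 0.13, -0.43 and 0.32, so Nkain2 and Chl1 were slightly higher and Asxl3 lower. None of the 3 was at least 2-fold higher, as 1.62% of the 29939 nuclear genes with signal in both populations were, and 47.4% of those genes had any higher value. Over diff. SpG the signal was 1.59 times as high for Nkain2, 0.857 times for Asxl3 and 2.09 times for Chl1. The RNA ratios over diff. SpG were 3.61, 1.21 and 1.14, so for Chl1 the signal differed more than the RNA there. In RS the signal was below that of undiff. SpG for every one of the 3, at 0.787, 0.668 and 0.612 times. A lower signal in RS was found for 39.2% of 30280 genes and one at least 2-fold higher for 17.3%, with a median log2 ratio of 0.21. A higher ratio than that of Nkain2, Asxl3 and Chl1 was found for 73.5%, 79.8% and 82.1% of those genes in that order. Over the 13 populations Spearman's rho between RNA level and scATAC-seq signal was 0.13 for Nkain2, 0.23 for Asxl3 and 0.13 for Chl1, over points that share libraries. Mean TSS enrichment, the signal at start sites over that of flanks, was 7.99 in the 470 SpG Nfya-CKO cells with both assays and 12.7 in the 1230 undiff. SpG cells, and its part in these ratios was not tested.

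**Figure D5:**
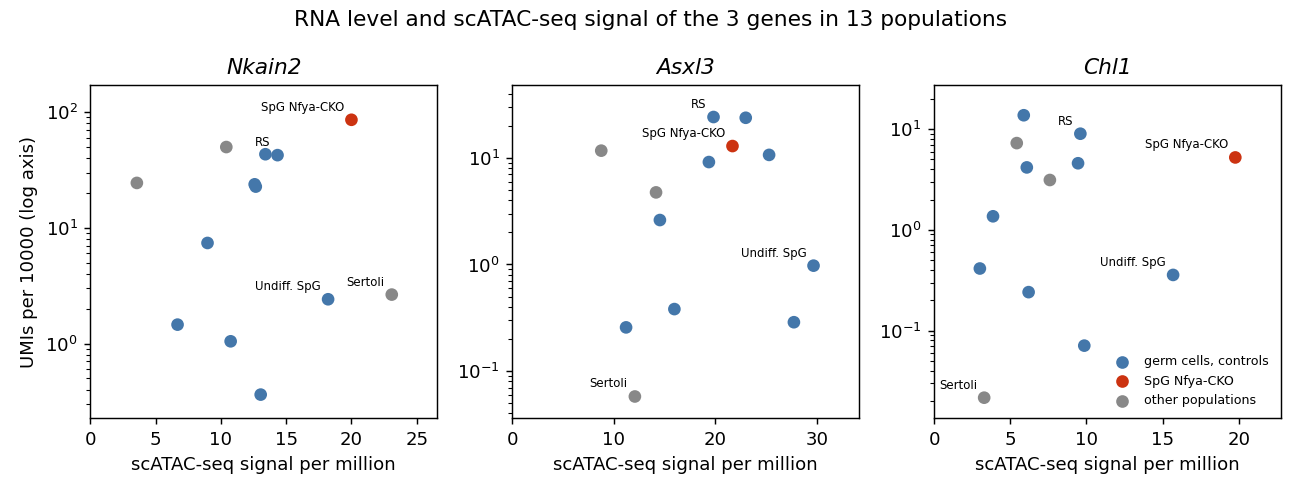
Each point is 1 population, with the scATAC-seq signal of the gene per 1000000 on the horizontal axis and its RNA level in UMIs per 10000 on a log vertical axis. SpG Nfya-CKO and undiff. SpG lie at a signal of 20.0 and 18.2 for Nkain2, 21.7 and 29.7 for Asxl3 and 19.8 and 15.7 for Chl1. Their RNA levels lie further apart for every one of the 3 genes, at 85.6 and 2.41 for Nkain2.

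The relatives of the 3 genes were measured in the same populations, where 4.09% of all genes were at least 2-fold higher and 3.08% lower in SpG Nfya-CKO than in undiff. SpG, so that few calls would be met in lists this short. In the Nkain family, Nkain1 was at 0.183 UMIs per 10000 in undiff. SpG and 0.287 in SpG Nfya-CKO, Nkain3 at 0.157 and 0.272, and Nkain4, which was below the filter on the mean, at 0.0263 and 0.162. Of 6 Na,K-ATPase subunits that passed the filter, none was 2-fold higher or lower. In the Asxl family, Asxl1 was at 3.07 and 3.28 and Asxl2 at 1.47 and 1.50. Of 9 genes of the BAP1 complex none was 2-fold higher or lower, and Bap1 itself was at 1.25 and 1.18.

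Among the L1 family adhesion molecules Nrcam was the other one that was at least 2-fold higher, from 0.108 to 0.349, while Nfasc was at 0.541 and 0.389. Of 13 partners of the L1 family that passed the filter, none was 2-fold higher and 3 were 2-fold lower, as were 3.08% of all genes. These were Hspa8, a constitutive chaperone, at 5.54 and 1.34, Ank3, an ankyrin that ties membrane proteins to spectrin, at 1.50 and 0.657, and the contactin Cntn6 at 0.458 and 0.137. The lists had median log2 ratios between -0.21 and 0.49, against 0.01 over all genes.

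The 3 genes are long. In GENCODE annotation of GRCm38, Nkain2 spans 1201 kb on chromosome 10 (31689310 to 32890462, minus strand), Asxl3 185 kb on chromosome 18 (22344883 to 22530227, plus strand) and Chl1 240 kb on chromosome 6 (103510586 to 103750211, plus strand). No other gene of the scRNA-seq matrix overlaps them. Of 14875 genes with a span and a mean of at least 0.05, 30 are longer than Nkain2, 1079 than Asxl3 and 769 than Chl1. In the decile of the longest genes, which starts at 145 kb and holds all 3, 84 of 1488 genes (5.65%) were at least 2-fold higher in SpG Nfya-CKO than in undiff. SpG, against 4.09% of all genes. The 2 deciles of the shortest genes had larger shares, 6.38% and 5.72%. Among 24 other long genes known from neurons, 5 were at least 2-fold higher (Lsamp, Sgcz, Cntnap5a, Kcnip4 and Dmd) and none was 2-fold lower, against 4.09% and 3.08% of all genes, with a median log2 ratio of 0.36. The largest of these ratios was 2.03 for Lsamp on the log2 scale. The ratios of the 3 genes rest on the levels that chose them, so they are not compared with it.

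By their log2 RNA levels over the 13 populations, Asxl3 and Chl1 were more alike (Pearson's r = 0.98) than Nkain2 was to either (0.92 with Asxl3 and 0.93 with Chl1). Chl1 was the gene most like Asxl3 of all 15250. The 5 genes most like Nkain2 were A330008L17Rik, Sult2a8, Gm15218, Gm10837 and Fah, with r from 0.95 to 0.96. After Chl1, those most like Asxl3 were Dgkb, Gm10837, Hspbp1 and D830024N08Rik, from 0.96 to 0.97. Those most like Chl1 were Dgkb (0.99), Gm14582, Asxl3, Hspbp1 and Gm10837. Dgkb, a diacylglycerol kinase gene of 817 kb, was at 0.0814 in undiff. SpG, 1.12 in diff. SpG, 2.04 in RS and 1.20 in SpG Nfya-CKO. Nkain2, Asxl3 and Chl1 were chosen by these same RNA levels, so their likeness to one another is fixed in part by that choice. Nothing is therefore read from it, or from the place of Chl1 among the genes most like Asxl3. The populations also share libraries, so none of these likenesses carries a test.

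The targeted gene did not check the labels. Nfya was at 0.456 UMIs per 10000 in undiff. SpG and 1.11 in SpG Nfya-CKO. The matrix holds 1 value for the whole gene, however, and the deletion removes internal exons. Depth was 30227701 to 64967271 UMIs per scRNA-seq library, with a median of 9290 UMIs per cell in undiff. SpG and 18361 in SpG Nfya-CKO. The intervals given cover counting error only.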

How the data were processed

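The members, gene lists and ratios were chosen with earlier results of these data known. Nuclei of 5 testis samples were profiled on BD Rhapsody, with 1 library per condition and assay. Per the labels and the study's methods, the authors aligned reads to mm10 (STAR 2.7.10b for RNA, BWA 0.7.12 for chromatin) and filtered cells, removed doublets and named populations with Seurat 5.2.1 and ArchR 1.0.3. The authors deposited UMI and fragment counts per cell, without normalization, and TSS enrichment, a ratio. They deposited 1 matrix per assay, in natural log units of 1 plus a level that sums to 10000 in each population, as found from the values. The study's methods define promoter accessibility as mean coverage close to the start site, in tracks scaled to sequencing depth. Whether the deposited scATAC-seq matrix, on its different scale, counts that region or another is not given in the sources used here. Values were transformed back with exp(value) - 1, and scATAC-seq was rescaled to 1000000 per population.

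Log2 ratios used pseudocounts of 0.1 (RNA) and 1 (scATAC-seq). RNA ratios were ranked over genes with a mean of at least 0.05. No statistical test between populations was made. Named genes are the 3 members, the listed genes, the 5 genes most correlated with each member over 13 populations and the 10 spermatid genes with the largest ratio; Dgkb values and the comparisons by barcode and adult share were chosen after the values were seen. Of 45250 scRNA-seq cells, 49 had no library name. Another 24 columns of the cell tables were not used. RefSeq GRCm38.p6 gave promoters and GENCODE gave gene models. The calculation of the fold calls was checked on simulated levels with known folds. That simulation held no differences between libraries or ages and no shared barcodes, so nothing about these results is read from it. Alternatives were other pseudocounts, filters, scalings and control populations. Python 3 with pandas and scipy was used.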

Additional observations from a re-analysis of the deposited data

How the results depend on the processing

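Leaving out a library was not possible, since the matrices pool cells and each condition is 1 library. No log2 ratio of the 3 genes changed sign under any alternative run. The RNA ratios over undifferentiated spermatogonia (5.09 for Nkain2, 3.60 for Asxl3, 3.55 for Chl1) became 1.85, 0.27 and 0.19 with differentiating spermatogonia as the control and 7.54, 5.07 and 4.97 with preleptotene spermatocytes. With a pseudocount of 1, Asxl3 was at 2.82 and Chl1 at 2.20. In scATAC-seq the Chl1 ratio of 0.32 became 0.99 with differentiating spermatogonia and 0.94 with preleptotene spermatocytes as the control. Turned back from log2 to fold, the other 26 alternative values of these ratios stayed within 1.5 times of those reported. Among them, the Nkain2 scATAC-seq log2 ratio of 0.13 became 0.63 with differentiating spermatogonia and 0.58 with preleptotene spermatocytes as the control. The 624 genes at least 2-fold higher became 1557 with a pseudocount of 0.01, 43 with a pseudocount of 1, 1046 with differentiating spermatogonia and 1380 with preleptotene spermatocytes as the control. The 396 spermatid genes also high in Nfya-CKO spermatogonia became 949 and 35 with pseudocounts of 0.01 and 1, and 69 at 4-fold. All 3 genes were in every one of these sets except those against differentiating spermatogonia, which held 1 of them, Nkain2.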
